A study of Mus musculus with 6 samples.

Results

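Serglycin is the proteoglycan core protein of secretory granules in blood cells, and this account follows its gene, Srgn, and 9 genes for enzymes that build or sulfate the sugar chains it carries. The members were taken by RefSeq accession: Srgn, Ext1, Glce, Ndst1, Ndst2, Hs2st1, Hs6st1, Chst11, Chst12 and Chst15. Each of the 10 genes had 1 entry among the 23146 entries of the deposited tables. RNA of EML cells, a mouse haematopoietic progenitor line with erythroid, myeloid and mast cell potential, was sequenced in 6 libraries to ask what loss and gain of KAI1, the tetraspanin encoded by Cd82, do to mRNA levels. There were 2 libraries of KAI1 knockdown with 2 of its control, and 1 library of KAI1 overexpression with 1 of its own control. All 4 groups were EML cells labelled as strain BDF1, bone marrow and basophil, kept in 200 ng/ml stem cell factor and 20% serum. The sources used here do not give how KAI1 was knocked down or overexpressed, or whether a line was 1 clone.

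Serglycin has a short protein core with a run of serine and glycine residues, to which many long chains are attached through a linker sugar. In connective tissue mast cells the chains are mainly heparin, and in mucosal mast cells, basophils and many other blood cells they are mainly chondroitin sulfate. Their negative charge holds basic proteases and histamine in the granule. Heparin is made from the heparan sulfate backbone: Ext1 with Ext2 polymerizes it, the Ndst enzymes replace acetyl by sulfate on glucosamine, Glce turns glucuronic into iduronic acid, and Hs2st1 and Hs6st1 add further sulfates. Chst11 and Chst12 sulfate chondroitin at the 4-position, and Chst15 adds a second sulfate at the 6-position.

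On mm9, the build of the deposited tables, Srgn lies at chr10:61957176-61970503, Ndst2 at chr14:21542952-21553784 and Chst11 at chr10:82448242-82658636. Ext1 lies at chr15:52899818-53177738, Glce at chr9:61905056-61918413, Hs2st1 at chr3:144094071-144233180 and Hs6st1 at chr1:36125245-36163291. Chst12 lies at chr5:140981563-141001192 and Chst15 at chr7:139427938-139509974, where it overlaps the entry Gm10584, listed at 0 in all libraries. Stretches of DNA upstream of the 2 most abundant members are shown, because the highest 2 libraries were the same for Srgn and Ndst2, described further on. For Srgn, knockdown control replicate 2 stood at 512 RPKM, close to control replicate 1 at 578 RPKM. The stretches come from RefSeq's promoter windows on GRCm38.p6 and are read along the gene's own strand, 5′ to 3′. The Srgn stretch lies on the minus strand at chr10:62507813-62507842, 85 to 56 bases before a start RefSeq gives. RefSeq's table holds 2 windows for Srgn, and this one was used because GENCODE places the transcript matched to the Srgn accession at its start, within 2 bases. Capitals in it mark GGAA, the core that ETS factors bind, and TGACGT, which holds a cyclic AMP response element's half-site. The Ndst2 stretch holds the 250 bases before its start, at chr14:20734563-20734812 on the minus strand, and capitals mark CCGCCC, the GC box GGGCGG read on the other strand.
Srgn: gttcaGGAAactgTGACGTgtgttcttggg
Ndst2: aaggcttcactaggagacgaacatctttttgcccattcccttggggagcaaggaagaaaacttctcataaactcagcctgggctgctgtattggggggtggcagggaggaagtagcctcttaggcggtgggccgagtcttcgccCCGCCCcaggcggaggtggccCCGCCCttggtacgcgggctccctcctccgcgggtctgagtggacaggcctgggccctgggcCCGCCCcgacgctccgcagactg

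The letters TGACGT, on either strand, occurred in 6.47% of the 32851 windows of 250 bases, GGAA in 93.4% and GGGCGG in 32.7%. The Srgn window used held TGACGT 1 time and GGGCGG 0 times, the other Srgn window held both 0 times, and the Ndst2 window held TGACGT 0 times and GGGCGG 3 times. The GATA letters GATAA, in 22.6% of windows, and CATGTG, an E-box that MITF can bind, in 12.3%, were in none of the 3. These letters describe the windows only; no binding was measured.

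The 6 libraries held about 9800000 to 25700000 reads each, as estimated from the steps of low RPKM values. The targeted gene Cd82 stood at 43.9 and 13.8 RPKM in control replicates 1 and 2 of the knockdown and 7.65 and 6.91 RPKM in the KAI1 knockdown. It stood at 11.9 RPKM in the overexpression control and 15.2 RPKM in the KAI1 overexpression. The log2 difference of Cd82 in the knockdown was -1.64 (SE 0.58), and limma did not call it (adjusted p = 0.83). In the overexpression arm Cd82 stood 0.34 above its control on the log2 scale, without a test. Knockdown control replicate 1 stood apart from the other libraries. It led in the sum of mast cell genes, with KAI1 overexpression next: the summed level of all 10 mast cell and basophil markers listed for this check was 43140 RPKM there and 17390 RPKM in KAI1 overexpression. It was 3892 to 7712 RPKM in the other 4 libraries. The sum of 7 erythroid markers was lowest in the same pair, at 164 and 681 RPKM, against 2177 to 2776 RPKM elsewhere. That sum is mostly the globin genes Hbb-bt and Hbb-bs; the erythroid factor gene Gata1 (87.3 RPKM) and the erythropoietin receptor gene Epor (15.6 RPKM) were instead highest in knockdown control replicate 1. The pair stood at opposite ends in other lists: the sum of 5 megakaryocyte markers was highest in that control, at 1851 RPKM, and lowest in KAI1 overexpression, at 290 RPKM, and that of 6 stem and progenitor markers likewise, at 773 and 136 RPKM. Among defining markers, the IgE receptor gene Fcer1a was listed at 0 in knockdown control replicate 2 and KAI1 knockdown replicate 1 and reached 24.2 RPKM, and the basophil protease gene Mcpt8 stood at 3908 RPKM in KAI1 overexpression, 160 RPKM in knockdown control replicate 1 and 116 to 491 RPKM in the other 4. Of 5 lymphoid markers Cd3e and Rag1 were listed at 0 in every library, and Il7r stood at 9.21 RPKM in knockdown control replicate 1 against 0.079 to 1.01 RPKM in the others. In bulk RNA, fewer cells of a type and less RNA per cell cannot be told apart, and the part of these marker differences in the results that follow was not tested.

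Srgn was abundant in every library. It ranked between 215 and 334 among the 23146 entries and made up 95.9% to 99.0% of the summed RPKM of Srgn and 20 other proteoglycan core genes. It stood at 578 and 512 RPKM in control replicates 1 and 2 of the knockdown, at 402 and 400 RPKM in the KAI1 knockdown, at 418 RPKM in the overexpression control and at 734 RPKM in KAI1 overexpression. KAI1 overexpression was the highest, followed by both knockdown controls, and the 3 lowest libraries lay between 400 and 418 RPKM. The group means were 545 ± 46.2 RPKM (SD, n = 2) in the controls and 401 ± 1.54 RPKM (SD, n = 2) in the knockdown, and these groups did not overlap. The log2 difference was -0.44 (SE 0.26, 95% interval -1.15 to 0.27), and limma did not call it (adjusted p = 0.83). The overexpression library stood 1.75-fold above its control on the RPKM + 1 scale, in 1 library against 1 and so without a test. The difference between both knockdown libraries and both controls had the same sign without either control, at -0.35 without control replicate 1 and -0.52 without control replicate 2.

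**Figure D1:**
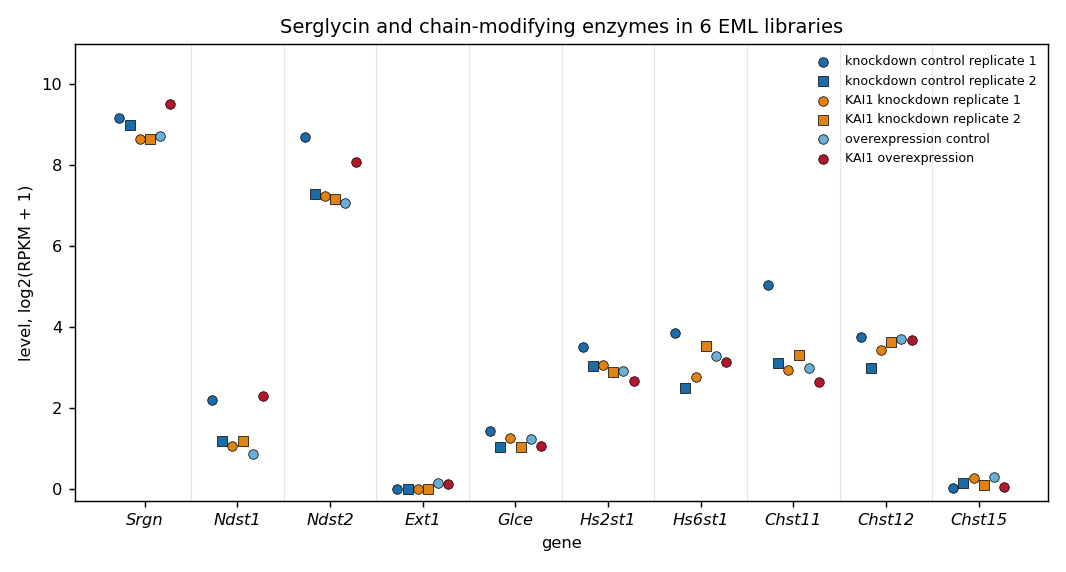
Level of each gene as log2(RPKM + 1), 1 point per library, coloured by group and with squares for second replicates. Srgn and Ndst2 stand far above the other 8 genes in all 6 libraries, and Ext1 and Chst15 lie near 0.

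The N-deacetylase/N-sulfotransferases make the first and decisive modification of heparin, and Ndst2 is the form that mast cell heparin depends on. Ndst2 was the most abundant of the 9 enzyme genes in every library. It stood at 416 and 155 RPKM in control replicates 1 and 2 of the knockdown, at 149 and 142 RPKM in the KAI1 knockdown, at 133 RPKM in the overexpression control and at 270 RPKM in KAI1 overexpression. The high libraries were therefore knockdown control replicate 1 and KAI1 overexpression, and the other 4 lay between 133 and 155 RPKM. Both knockdown libraries lay below both controls, but control replicate 2 exceeded the higher of them by a factor of only 1.03. The log2 difference was -0.80 (SE 0.54, 95% interval -2.25 to 0.66) and was not called by limma (adjusted p = 0.83). Leaving out control replicate 1 gave -0.09, in a fit that called 0.158% of all entries. Leaving out control replicate 2 gave -1.51, and limma then called Ndst2 (adjusted p = 0.0289), as it did 6.29% of all entries as lower. Such a fit has a single control, whose spread is taken to be like that of the knockdown pair. In the overexpression arm Ndst2 stood 2.03-fold higher.

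Ndst1, the more widely expressed form, was low. It stood at 3.54 and 1.26 RPKM in control replicates 1 and 2 of the knockdown, at 1.09 and 1.25 RPKM in the KAI1 knockdown, at 0.822 RPKM in the overexpression control and at 3.87 RPKM in KAI1 overexpression. The same pair of libraries was high as for Ndst2, and the groups of the knockdown arm touched, with 1.25 RPKM in the knockdown next to 1.26 RPKM in control replicate 2. Its log2 difference in the knockdown was -0.56 (SE 0.43, limma adjusted p = 0.83), and leaving out control replicate 1 or 2 gave -0.06 or -1.07 (adjusted p = 0.896 or 0.0635). In the overexpression arm it stood 2.67-fold higher on the RPKM + 1 scale. RPKM is per transcript length, so the 2 forms can be set against each other: Ndst2 made up 98.6% to 99.4% of their sum. The ratio of Ndst2 to Ndst1 lay between 114 and 161 in 5 libraries and at 69.7 in KAI1 overexpression. Ndst3 and Ndst4 were listed at 0 in all 6 libraries.

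The chain polymerase gene Ext1 was at or near 0. It was listed at 0 in all 4 libraries of the knockdown arm and stood at 0.0987 RPKM in the overexpression control and 0.0870 RPKM in KAI1 overexpression. The smallest whole reads that give these values were 3 and 2, and multiples of them would give the same ratio. With its GENCODE transcript length of 7663 bases, Ext1 had an estimated 19.5 and 13 reads. Its partner gene Ext2 stood at 37.3 and 25.5 RPKM in control replicates 1 and 2 of the knockdown, 28.1 and 31.9 RPKM in the KAI1 knockdown, 23.3 RPKM in the overexpression control and 21.5 RPKM in KAI1 overexpression. The groups of the knockdown arm overlapped in Ext2. An exact 0 in tables of this kind can be a failed estimate, so no fold was taken for Ext1.

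Glce, the epimerase, stood at 1.70 RPKM in control replicate 1 of the knockdown, its highest library, and at 1.04 RPKM in control replicate 2. The KAI1 knockdown libraries stood at 1.39 and 1.04 RPKM, the overexpression control at 1.33 RPKM and KAI1 overexpression at 1.08 RPKM. The groups overlapped, and the log2 difference of -0.09 (SE 0.31) turned to 0.12 without control replicate 1 and to 0.03 without KAI1 knockdown replicate 2. These levels rest on an estimated 47.1 to 158 reads per library.

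Hs2st1, which sulfates iduronic acid at the 2-position, stood at 10.3 and 7.16 RPKM in control replicates 1 and 2 of the knockdown, 7.33 and 6.44 RPKM in the KAI1 knockdown, 6.57 RPKM in the overexpression control and 5.32 RPKM in KAI1 overexpression. Knockdown control replicate 1 was the highest and KAI1 overexpression the lowest. The groups overlapped in the knockdown arm, with a log2 difference of -0.28 (SE 0.26, limma adjusted p = 0.837). Leaving out control replicate 1 or 2 gave -0.05 or -0.52, and limma called neither (adjusted p = 0.913 or 0.153). Unlike Ndst2, Hs2st1 did not stand high in KAI1 overexpression. The ratio of Ndst2 to Hs2st1, which no scaling of a whole library can move, was highest in KAI1 overexpression, at 50.7, and next in the first knockdown control, at 40.6, with 20.2 to 22.0 in the other 4. The ratio of Ndst2 to Hs2st1 was formed after the values were seen.

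Hs6st1, which adds sulfate to glucosamine at the 6-position, stood at 13.5 and 4.65 RPKM in control replicates 1 and 2 of the knockdown, 5.83 and 10.5 RPKM in the KAI1 knockdown, 8.67 RPKM in the overexpression control and 7.81 RPKM in KAI1 overexpression. The controls were its highest and lowest libraries and enclosed the knockdown. The log2 difference was -0.03 (SE 0.56), and leaving out a library gave 0.65 (control replicate 1), 0.35 (KAI1 knockdown replicate 1) or -0.71 (control replicate 2). None of these was called by limma (adjusted p from 0.276 to 1). Hs6st2 and Hs6st3, the other 6-O-sulfotransferases, did not exceed 0.85 RPKM anywhere.

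Chst11, a chondroitin 4-O-sulfotransferase, was high in a single library. It stood at 32.1 and 7.69 RPKM in control replicates 1 and 2 of the knockdown, 6.64 and 8.96 RPKM in the KAI1 knockdown, 6.91 RPKM in the overexpression control and 5.21 RPKM in KAI1 overexpression. Knockdown control replicate 1 lay 4.18-fold above control replicate 2, the largest gap between the controls among the 8 members tested, while KAI1 overexpression was the lowest library. The log2 difference in the knockdown was -0.96 (SE 0.70, limma adjusted p = 0.83). Leaving out control replicate 1 gave 0.01. Leaving out control replicate 2 gave -1.93, with a single control in the fit.

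Chst12, the second 4-O-sulfotransferase of the group, lay between 6.85 and 12.4 RPKM. It stood at 12.4 and 6.85 RPKM in control replicates 1 and 2 of the knockdown, 9.85 and 11.4 RPKM in the KAI1 knockdown, and 12.04 and 11.8 RPKM in the overexpression control and KAI1 overexpression. Control replicate 2 was its lowest library. The log2 difference was 0.17 (SE 0.34, limma adjusted p = 0.914), and -0.21 without control replicate 2. The ratio of Chst11 to Chst12 was 2.59 in knockdown control replicate 1, 1.12 in control replicate 2 and 0.442 to 0.787 in the other 4 libraries.

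Chst15, which makes the doubly sulfated chondroitin that mucosal-type mast cells are known for, was close to the limit of what these libraries show. It stood at 0.0120 and 0.0927 RPKM in control replicates 1 and 2 of the knockdown, 0.195 and 0.0703 RPKM in the KAI1 knockdown, 0.212 RPKM in the overexpression control and 0.0349 RPKM in KAI1 overexpression. The smallest whole reads that give these values, within 0.05 of a read, were 1 and 4, 11 and 6, 24 and 3 in the same order. The reads of KAI1 overexpression against its control, relative to depth, gave a ratio of 0.165 with an exact 95% interval of 0.0319 to 0.544 that covers counting error only and compares these libraries, not the conditions. The 2 libraries high in mast cell markers held the fewest Chst15 reads, 1 and 3.

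Across the members, 8 of the 10 genes reached the mean of 1 RPKM needed for the test in the knockdown arm, and Ext1 and Chst15 did not. Limma called 0 of the 8 members, and 0 had an unadjusted p below 0.05, where 0.0297% and 3.32% of all 10113 entries tested did so. Of all entries 0.00989% were called higher and 0.0198% lower. In 3 members, Srgn, Ndst1 and Ndst2, the knockdown pair lay wholly below the control pair, and in 0 members wholly above. Over all entries tested, 17% lay below and 21.5% above. With a scaling of each library by its median ratio these shares of all entries were 20.7% below and 17.4% above, and 4 members lay below. The median log2 difference over the 8 members was -0.36, against 0.03 over all entries, and leaving out control replicate 1 gave -0.02, and control replicate 2 -0.62. With 2 libraries against 2, an exact two-sided permutation test of a single gene cannot go below p = 0.333. Nothing in the labels says that replicates were grown separately, and the p-values therefore reflect how far these libraries differ from each other, possibly for technical reasons only.

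**Figure D2:**
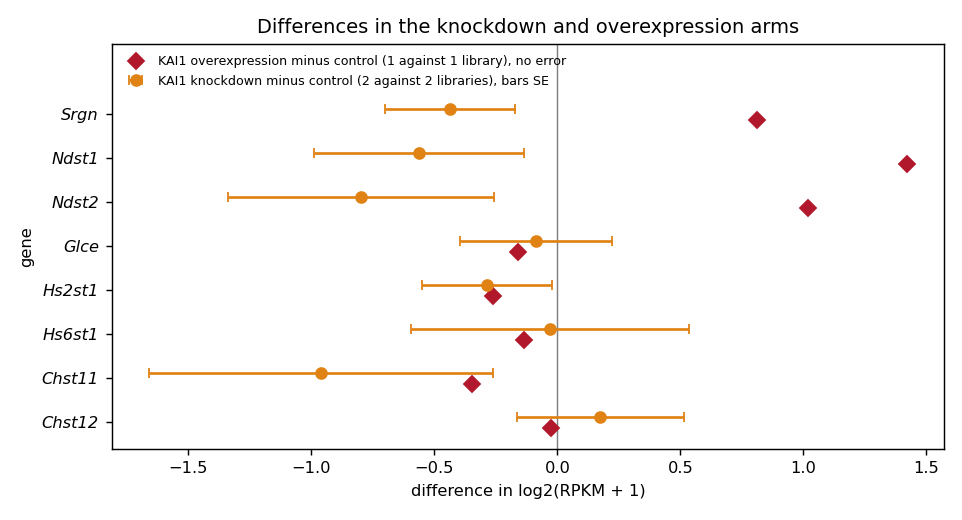
Differences in log2(RPKM + 1) for the 8 members tested: circles with SE bars for KAI1 knockdown minus control (2 libraries against 2), diamonds for KAI1 overexpression minus control (1 against 1, no error). Srgn, Ndst1 and Ndst2 lie to the left of 0 in the knockdown and to the right in the overexpression, at 0.81, 1.42 and 1.02.

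In the overexpression arm, 2 of the 8 members, Ndst1 and Ndst2, were higher by 2-fold or more and 0 were lower by that much, where 4.92% and 5.21% of 9936 entries did. Srgn was the only other member above its control. The remaining 5 stood slightly lower, from -0.03 on the log2 scale for Chst12 to -0.35 for Chst11, and the median of the 8 was -0.08 against 0.01 over all entries. The arms have separate controls. Srgn, Ndst1 and Ndst2 were lower than both controls in the knockdown and higher than the control in the overexpression, a combination seen in 12% of the 10113 entries. Srgn and Ndst1 were in addition highest of all 6 libraries in KAI1 overexpression, and 1.75% of the 10113 entries were both below the knockdown controls and highest there. These combinations were counted after the values were seen.

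The median difference between the 2 controls of the knockdown arm, over the 8 members, was 0.89 on the log2 scale, against 0.01 over all entries. Of the 8 members, 4 exceeded control replicate 2 by 2-fold or more in control replicate 1 on the RPKM + 1 scale: Chst11, Ndst2, Hs6st1 and Ndst1, with log2 differences of 1.93, 1.42, 1.36 and 1.01. Over all entries tested 12.8% did so, and 8.56% were lower by that much, as were 0 members. Ndst1 and Ndst2 passed 2-fold both there and in the overexpression, as did 2.79% of 9736 entries. Control replicate 1 was the highest of the 6 libraries in 6 of the 8 members, against 30.3% of all entries, and KAI1 overexpression was highest in the other 2, against 12.1%. Srgn had the smallest difference between the controls among the 8, at 0.17.

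Serglycin and its cargo did not keep a fixed proportion. The summed level of 10 mast cell protease genes was 76798 and 16427 RPKM in control replicates 1 and 2 of the knockdown, 8720 and 7697 RPKM in the KAI1 knockdown, 6414 RPKM in the overexpression control and 27740 RPKM in KAI1 overexpression. Knockdown control replicate 1 led, KAI1 overexpression and control replicate 2 followed, and the other 3 lay at or below 8720 RPKM. Relative to Srgn the proteases stood at 133 in knockdown control replicate 1, 37.8 in KAI1 overexpression and 15.3 to 32.1 elsewhere. Cpa3, the carboxypeptidase that heparin-bearing granules store, spanned a narrower range, at 6236 and 4110 RPKM in control replicates 1 and 2, 2930 and 2355 RPKM in the KAI1 knockdown, 2246 RPKM in the overexpression control and 3895 RPKM in KAI1 overexpression. Mcpt4, a chymase that binds heparin, varied far more, from 23.2 RPKM in the overexpression control to 9416 RPKM in knockdown control replicate 1. Several of these proteases are near-identical copies of each other, and how the authors' counting divided reads between them is uncertain, which a sum lessens. Of the 11 mast cell granule genes listed, all were tested: limma called 0, 2 had an unadjusted p below 0.05, and in 8 the knockdown pair lay wholly below the controls, where 17% of all entries did, with a median log2 difference of -2.61. In the overexpression arm 9 of 10 were higher by 2-fold or more, where 4.92% of all entries were. Their part in the values of Srgn and Ndst2 was not tested.

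**Figure D3:**
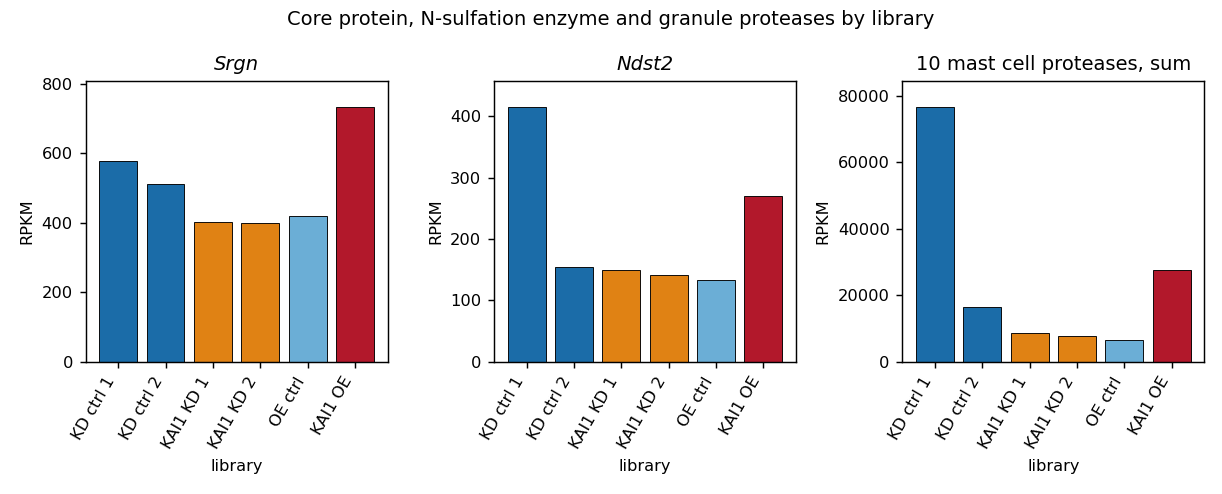
Bars give RPKM per library for Srgn, for Ndst2 and for the sum of 10 mast cell protease genes (KD, knockdown; OE, overexpression; ctrl, control). Srgn spans 400 to 734 RPKM, Ndst2 133 to 416 RPKM and the proteases 6414 to 76798 RPKM, and knockdown control replicate 1 and KAI1 overexpression are the highest 2 libraries in each panel.

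The genes whose course over the 6 libraries was nearest to that of a member were found by the root mean square distance of centred log2(RPKM + 1) values among 7131 entries of at least 5 RPKM. For Srgn, whose own values spread by 0.32 on this measure, they were Atad1, Mad2l1bp, Atp8b4, Klhl7 and Nanog, at distances of 0.083 to 0.12. Atp8b4, a phospholipid flippase gene, stood at 27.2 and 27.8 RPKM in control replicates 1 and 2 of the knockdown, 21.5 and 23.1 RPKM in the KAI1 knockdown, 21.8 RPKM in the overexpression control and 35.6 RPKM in KAI1 overexpression. Nanog has pseudogene copies that can share its reads. For Ndst2, with a spread of 0.60, they were Nek7, Eea1, Nek6, Trim35 and Dicer1, at 0.068 to 0.096. Nek6, a mitotic kinase gene, stood at 37.5 and 12.5 RPKM in control replicates 1 and 2, 12.5 and 12.1 RPKM in the KAI1 knockdown, 11.6 RPKM in the overexpression control and 27.0 RPKM in KAI1 overexpression. Srgn itself was at 0.41 from Ndst2, which ranked it 732 by nearness to Ndst2 among the 7131 entries compared. By nearness to Srgn, Ndst2 ranked 2844, and the distance of 0.41 exceeded the spread of Srgn itself, 0.32. Chst15 varied by only 0.098 on this scale, so the genes nearest to it, Cdan1, Nt5c2, Tial1, Samd1 and Dgat1, are no more than genes with little variation.

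The other genes of the pathway were taken from 6 lists with 87 genes, of which 86 had an entry and 41 reached the level for the test. Limma called 0 of them, and 5 had an unadjusted p below 0.05. The knockdown pair lay wholly above the controls in 5 and wholly below in 8, where 21.5% and 17% of all entries did. The median log2 difference was -0.13, against 0.03 over all entries. In the overexpression arm 4 of 39 were higher by 2-fold or more and 1 was lower by that much, where 4.92% and 5.21% of all entries were. Between the knockdown controls, 12 of the 41 were 2-fold or more higher in the first and 3 in the second, against 12.8% and 8.56% of all entries.

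The list for sulfate and sugar nucleotide supply holds Papss2, which makes the sulfate donor PAPS that every sulfotransferase uses. It stood at 125 and 63.4 RPKM in control replicates 1 and 2 of the knockdown, 29.95 and 34.1 RPKM in the KAI1 knockdown, 48.4 RPKM in the overexpression control and 155 RPKM in KAI1 overexpression. The knockdown libraries were the lowest 2 of the 6, and the groups did not overlap. The log2 difference was -1.45 (limma adjusted p = 0.83, unadjusted p = 0.0197), and the overexpression library stood 1.66 above its control on the log2 scale. Papss1, which also makes PAPS, did not follow this course. It stood at 10.7 and 8.19 RPKM in control replicates 1 and 2 and 7.26 and 10.9 RPKM in the KAI1 knockdown, so its groups overlapped. Its log2 differences were -0.07 in the knockdown and 0.23 in the overexpression. Slc35d1, a transporter that brings sugar nucleotides into the endoplasmic reticulum, had the largest knockdown difference of this list. It stood at 29.7 and 3.20 RPKM in control replicates 1 and 2, 2.76 and 2.14 RPKM in the KAI1 knockdown, 1.70 RPKM in the overexpression control and 11.9 RPKM in KAI1 overexpression. The PAPS transporter gene Slc35b2 stood at 28.6 and 16.3 RPKM in control replicates 1 and 2 and 19.2 and 26.3 RPKM in the knockdown, so its groups overlapped. Tpst2, which sulfates tyrosine in proteins, stood at 76.9 and 26.0 RPKM against 30.4 and 47.2 RPKM. Of the 11 tested genes of this list, 4 lay below both controls and 0 above (17% and 21.5% of all entries), and 2 stood at least 2-fold higher in KAI1 overexpression (4.92%).

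The 7 enzymes of the linker had a median of 0.07. B3gat3, which adds the glucuronic acid that completes the linker, stood at 55.9 and 28.1 RPKM in control replicates 1 and 2 of the knockdown and 37.5 and 46.6 RPKM in the KAI1 knockdown, and B4galt7, which adds the first galactose, stood at 9.66 and 5.37 RPKM against 5.65 and 10.3 RPKM. Both overlapped. Fam20b, the xylose kinase, stood at 19.0 and 18.6 RPKM against 12.9 and 14.7 RPKM, and at 15.7 RPKM in the overexpression control against 7.60 RPKM in KAI1 overexpression. Pxylp1, the phosphatase that removes that phosphate, had the largest knockdown difference of the list, at 4.36 and 4.49 RPKM in control replicates 1 and 2 against 7.72 and 9.21 RPKM (log2 difference 0.80, limma adjusted p = 0.83). Of the 7 linker genes, 1 lay above and 1 below both controls (21.5% and 17% of all entries), and in the overexpression arm 0 passed 2-fold in either direction.

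Among the other heparan sulfate chain genes, 13 of 17 lay below 1 RPKM in all 6 libraries. The heparanase gene Hpse, the 3-O-sulfotransferase gene Hs3st1 and 5 further genes were listed at 0 throughout. The 4 tested genes had a median of -0.26. Extl1 stood at 5.46 and 1.15 RPKM in control replicates 1 and 2 and 0.85 and 1.94 RPKM in the knockdown, and Extl2 at 3.31 and 2.52 RPKM against 2.19 and 1.71 RPKM.

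The 5 tested genes of the chondroitin chain had a median of 0.67, with 2 above both controls and 0 below (21.5% and 17% of all entries). Chsy1, a chondroitin polymerase, stood at 0.35 and 3.88 RPKM in control replicates 1 and 2, 4.81 and 5.38 RPKM in the KAI1 knockdown, 5.52 RPKM in the overexpression control and 3.14 RPKM in KAI1 overexpression. Chpf2, a polymerizing factor, had the largest difference of the list. It stood at 25.1 and 7.72 RPKM in control replicates 1 and 2, 60.5 and 119 RPKM in the knockdown, 121 RPKM in the overexpression control and 310 RPKM in KAI1 overexpression. Its log2 difference was 2.51 (limma adjusted p = 0.83, unadjusted p = 0.0168), and KAI1 overexpression also lay above its control, by 1.36 on the log2 scale. Csgalnact2, which starts the chain, stood at 3.37 and 8.03 RPKM against 8.50 and 7.41 RPKM.

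Genes for the lysosomal breakdown of sulfated chains had a median of -0.41 over 11 tested genes, with 2 below both controls and 0 above (17% and 21.5% of all entries). Of the 11, 6 exceeded control replicate 2 by 2-fold or more in control replicate 1, where 12.8% of all entries did. Ids, the sulfatase that removes the sulfate Hs2st1 adds, had the largest difference, at 25.1 and 1.94 RPKM in control replicates 1 and 2, 1.56 and 1.08 RPKM in the KAI1 knockdown, 1.26 RPKM in the overexpression control and 4.32 RPKM in KAI1 overexpression. Hexa stood at 98.8 and 35.6 RPKM in control replicates 1 and 2 and 41.8 and 56.2 RPKM in the knockdown, and Gusb at 34.3 and 30.3 RPKM against 40.2 and 27.4 RPKM. Both genes overlapped between the groups.

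Of the 20 other proteoglycan core genes, 16 lay below 1 RPKM in all libraries and 3 were tested. Cd44, the hyaluronan receptor that can carry chondroitin sulfate, was high in knockdown control replicate 1 alone, with 21.2 RPKM, where the other 5 libraries had 1.47 RPKM or less. Gpc2, a glypican, stood at 1.75 and 2.95 RPKM in control replicates 1 and 2 and 4.87 and 7.94 RPKM in the KAI1 knockdown. Bgn, which encodes biglycan, stood at 4.82 and 3.89 RPKM in the overexpression arm and at or below 0.22 RPKM in the knockdown arm.

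**Figure D4:**
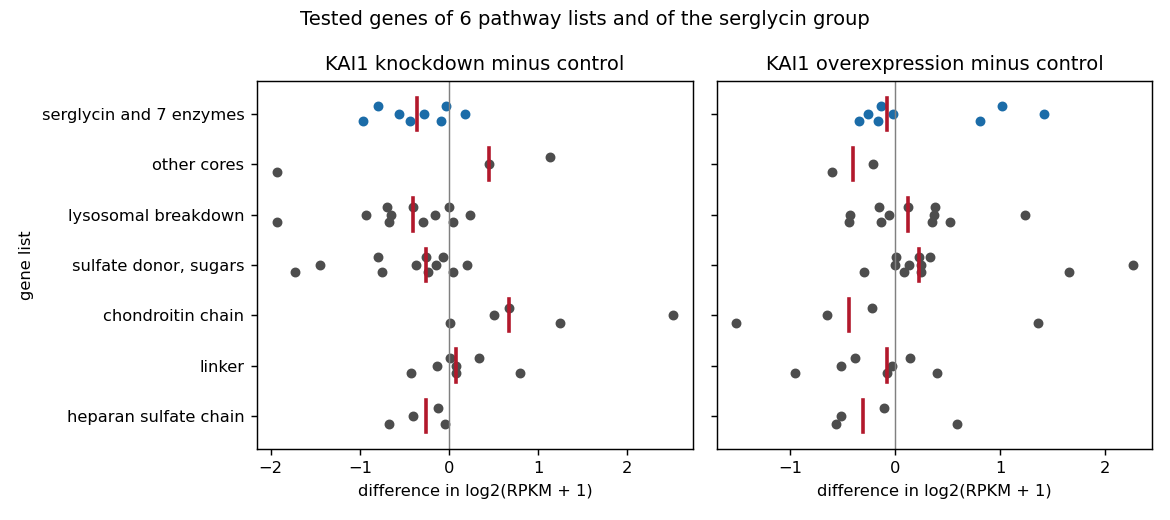
Each point is a tested gene, placed by its difference in log2(RPKM + 1), with red bars at list medians; the left panel shows KAI1 knockdown minus control and the right panel KAI1 overexpression minus control. Medians in the knockdown run from -0.41 for lysosomal breakdown to 0.67 for the chondroitin chain, against -0.36 for the serglycin group.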

How the data were processed

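The authors deposited 1 table of RPKM per library, per the file headers, with 23170 entries keyed by RefSeq accession and locus. The submitters' processing notes name mm9, TopHat2 2.0.9, Bowtie and Cufflinks; settings and strandedness are not given in the sources used here. Of 24 repeated entries 20 were identical, and 23146 were used. RefSeq and GENCODE tables on GRCm38 served for names and promoter windows only. Relative depth came from the most frequent ratio of values below 0.3 RPKM; the ratios of 15 of 15 pairs of libraries matched those taken through a reference library within 0.5%. Reads used 1411 entries with a GENCODE transcript length. The knockdown was fitted over 10113 entries that averaged 1 RPKM or more. The model was limma 3.58.1 (R 4.3.3), with its trend option, on values of log2 after adding 1 to the RPKM, two-sided and adjusted by Benjamini and Hochberg at 0.05. Fold changes on this scale understate the change of low genes. Overexpression values needed a mean of 1 RPKM over both libraries. Alternatives covered the pseudocount, the filter, 2 scalings, the trend, the libraries in the fit and the replicate block. The depth estimate and the limma fit were tested on simulated data. For limma these had far larger changes and a smaller spread than the members tested, so they do not show how it performs on them. Members and lists were chosen with earlier results of these data known. Beside the members, the text names the 5 nearest genes of Srgn, Ndst2 and Chst15, and in each list the 3 most abundant genes and the one with the largest knockdown difference, of which 1 gene is not reported here; Hs6st2, Hs6st3, Ndst3, Ndst4, Hpse, Hs3st1, Fcer1a, Mcpt8, Cd3e and Rag1 were named after their values were seen.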

Additional observations from a re-analysis of the deposited data

How the results depend on the processing

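Limma called 0 members with a pseudocount of 0.1, no filter, a filter at a mean of 5 RPKM, quantile normalization, median-ratio scaling, no trend and a fit of all 6 libraries, and between 0 and 2 with a library left out. For the 41 tested pathway genes these counts were 0 and, with a library left out, between 0 and 9; the calls came without control replicate 2, where 10.3% of all entries were called. The members whose groups did not overlap numbered 3, 4 with either scaling, and between 4 and 8 with a library left out: without control replicate 1 they were 3 higher and 3 lower, 6 in all, where 42.0% of all entries lay higher and 36.0% lower, and without control replicate 2 all 8 lay lower, as did 41.3% of all entries, with 44.2% higher. With a library left out, the log2 difference ran from -0.29 to 0.12 for Glce, from -0.71 to 0.65 for Hs6st1, from -1.93 to 0.0060 for Chst11 and from -0.21 to 0.56 for Chst12, with the lowest value without control replicate 2 and the highest without control replicate 1 in each. Glce was also at 0.025 without KAI1 knockdown replicate 2 and Hs6st1 at 0.35 without KAI1 knockdown replicate 1. Ndst1 in the overexpression stood at 2.11 with a pseudocount of 0.1, and 2 members passed 2-fold under each of the 4 alternatives run for that count (pseudocount 0.1, no filter and both scalings); a filter at 5 RPKM was not run for it. With the replicate number as a block, limma called 4 entries and 0 members. Same-numbered libraries deviated with a correlation of -0.075 across entries, and the labels do not say that the numbers pair them.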

Other observations

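Serglycin also holds granule proteins of other blood lineages. Of 10 such genes, 6 were tested in the knockdown, with a median log2 difference of -0.80, 2 below both controls and 0 above (17% and 21.5% of all entries), and limma called 0, with 0 at an unadjusted p below 0.05. In the overexpression arm 4 of the 6 stood at least 2-fold lower and 0 higher, where 5.21% and 4.92% of all entries did. Mpo, the peroxidase of neutrophil granules, was lowest in the pair of libraries with the highest Srgn levels, with 45.8 RPKM in KAI1 overexpression and 7.84 RPKM in control replicate 1 of the knockdown. The other 4 libraries had 470 to 750 RPKM.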
